A study of Mus musculus with 21 samples.

Results

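The kinetochore and spindle checkpoint genes were read here on 21 arrays of sorted mouse medulloblastoma cells. A gene belonged to the set if its platform symbol started with Cenp or was one of a list of named components of the outer kinetochore, its corona, the checkpoint and the machinery that loads centromeric histone. The rule read symbols and not values, though genes and lists were chosen with earlier results of these data known. This gave 44 genes on 87 probe sets of the 45101 on the array. Each of the 44 had at least 1 probe set past the filter on low signal, so they are 44 of the 12367 genes tested. A further 5 probe sets list Hjurp, the chaperone of CENP-A, together with other symbols, and no value is given for it. By role the genes fall into 3 of CENP-A and its loading, 15 of the constitutive centromere and 12 of the outer kinetochore. Another 5 belong to its corona and the RZZ complex and 6 to the checkpoint, and 3 carry a Cenp symbol without being part of these layers.

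The kinetochore is the protein body on each centromere that grips spindle microtubules when a cell divides. Its inner layer, the constitutive centromere-associated network, sits on nucleosomes that hold the histone CENP-A and stays there through the cell cycle, while most of the outer layer is added as mitosis nears. Kinetochores without microtubules recruit the checkpoint proteins, which hold back the anaphase-promoting complex until every chromosome is attached. Many of these genes are transcribed late in the cycle and are silent in cells that have left it, such as the neurons that granule cell precursors of the cerebellum become.

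All samples were tumour cells of Patched medulloblastomas, which arise in that granule lineage when the receptor Patched no longer restrains Hedgehog signalling. They had been sorted for CD15, a carbohydrate antigen found on several kinds of progenitor. The groups were Math1-GFP CD15 positive (n = 4), Math1-GFP CD15 negative (n = 5), conventional CD15 positive (n = 6) and conventional CD15 negative (n = 6). Math1, also called Atoh1, is a transcription factor of granule cell precursors, and GFP is a fluorescent protein. The titles name no age, strain or allele, and the descriptions call the Math1-GFP tumours conventional too, so the titles were followed. Every Math1-GFP title also carries another suffix than the conventional ones, and what that suffix stands for cannot be told apart from the tumour model. The labels do not tie the samples of a group to different mice, and p-values therefore reflect only how these samples vary, a part of which can be technical. In such bulk arrays fewer cells of a type and less RNA per cell cannot be told apart. All 6 granule lineage markers, Atoh1, Pax6, Zic1, Zic2, Barhl1 and Meis1, were measured, with a summed signal of 11695 to 14609 on Math1-GFP CD15 positive, 12691 to 16145 on Math1-GFP CD15 negative, 11187 to 13095 on conventional CD15 positive and 12248 to 19166 on conventional CD15 negative arrays.

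Signals are probe set intensities on the deposited linear scale, and fold changes are differences of log2(signal + 32), positive when CD15 positive cells were higher. Each gene stands for its brightest probe set. A gene is said to have risen or fallen where limma, fitted to all 12367 genes, gave it a Benjamini-Hochberg adjusted p under 0.05.

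The stretch around the start of transcription is shown for 8 genes of the set whose promoter holds the letters TTTGAA or TTCGAA on either strand. Members of all main classes carried them, but none of the 8 is of the constitutive centromere, where 4 of 15 genes did. The stretch is also shown for Zwint and Mad2l1, which lacked them. These letters are the core of the CHR, the cell cycle genes homology region, at which the MuvB complex represses genes of late cell cycle phases in resting cells and helps to activate them in dividing ones. The letters CCAAT are read by the factor NF-Y. Each line runs from 60 bases before to 50 bases after a start site in RefSeq (GRCm38.p6), 5′ to 3′ on the gene's own strand, with both motifs in capitals on whichever strand they were read, so that TTCAAA and ATTGG are their reverse forms. The stretches are Cenpa at chr5:30666826-30666935 (plus strand), Oip5 at chr2:119618456-119618565 (minus strand), Spc25 at chr2:69206164-69206273 (minus strand), Ndc80 at chr17:71526808-71526917 (minus strand), Cenpf at chr1:189688037-189688146 (minus strand), Bub1 at chr2:127831810-127831919 (minus strand), Bub1b at chr2:118598151-118598260 (plus strand), Ttk at chr9:83834629-83834738 (plus strand), Zwint at chr10:72654786-72654895 (plus strand) and Mad2l1 at chr6:66535161-66535270 (plus strand).
Cenpa: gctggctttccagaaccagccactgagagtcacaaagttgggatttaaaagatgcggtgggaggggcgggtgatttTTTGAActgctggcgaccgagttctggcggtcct
Oip5: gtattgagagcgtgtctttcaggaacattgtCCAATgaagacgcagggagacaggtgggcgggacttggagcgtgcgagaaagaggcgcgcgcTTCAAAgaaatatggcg
Spc25: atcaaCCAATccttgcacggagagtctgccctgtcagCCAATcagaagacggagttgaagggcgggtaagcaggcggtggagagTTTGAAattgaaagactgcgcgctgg
Ndc80: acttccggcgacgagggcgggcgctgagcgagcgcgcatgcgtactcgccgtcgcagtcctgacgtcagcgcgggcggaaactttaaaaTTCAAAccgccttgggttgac
Cenpf: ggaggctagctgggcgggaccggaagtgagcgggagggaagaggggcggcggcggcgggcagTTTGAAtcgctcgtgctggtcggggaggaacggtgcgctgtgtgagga
Bub1: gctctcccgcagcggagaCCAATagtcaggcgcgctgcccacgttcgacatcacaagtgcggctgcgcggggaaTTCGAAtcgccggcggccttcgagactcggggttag
Bub1b: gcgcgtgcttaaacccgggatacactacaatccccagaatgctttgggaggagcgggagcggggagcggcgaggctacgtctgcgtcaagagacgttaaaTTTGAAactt
Ttk: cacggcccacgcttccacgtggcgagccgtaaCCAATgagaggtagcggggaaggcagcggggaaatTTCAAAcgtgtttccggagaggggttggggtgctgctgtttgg
Zwint: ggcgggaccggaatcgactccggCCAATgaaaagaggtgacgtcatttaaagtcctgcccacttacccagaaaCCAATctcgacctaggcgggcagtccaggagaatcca
Mad2l1: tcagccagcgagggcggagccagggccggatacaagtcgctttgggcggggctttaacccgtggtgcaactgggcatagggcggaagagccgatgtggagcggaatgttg

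Windows of 300 bases, 250 before and 50 after the start, were given for 40 of the 44 genes, with none for Nsl1, Ska1, Spc24 and Zwilch. The CHR letters were in a window of 18 of the 40 (45%), against 5854 of all 27025 genes with windows (21.7%). By class they were in 3 of 3 genes of CENP-A and its loading, 4 of 15 of the constitutive centromere, 4 of 9 of the outer kinetochore, 3 of 4 of the corona and RZZ, 4 of 6 of the checkpoint and 0 of 3 others. They were in 15 of the 27 genes that rose in conventional CD15 positive cells and in 3 of the 13 that did not pass the test there. Within the printed stretch alone, which was chosen after the matches were seen, 13 of 40 members had them (32.5%), against 1836 of 27025 genes (6.79%). CCAAT was in 25 of 40 members (62.5%), against 41.1% of all genes. A stringent E2F motif, TTTCGCGC or TTTGGCGC on either strand, was in 1 member, Cenpl, against 0.929% of all genes. In Cenpw and Kntc1 the CHR and CCAAT letters share bases. These are matches of letters and say nothing of whether a factor was bound.

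In conventional tumours, 30 of the 44 genes rose in CD15 positive cells and 0 fell, where 3.05% of all genes tested rose, 5.09% fell and 8.13% changed in either direction. The 0 that fell compare with 1 gene, Zwint, lower at an unadjusted p under 0.05 by limma. The median log2 fold change of the 44 was 0.57, against -0.02 over all genes tested, and 43 of the 44 values were above 0, between -0.26 for Zwint and 0.95 for Cenpa. On 16 genes every CD15 positive array was above every CD15 negative one, which held for 1.89% of all genes, and on 0 was every positive array below, against 2.52% of all genes. The titles number 5 positive and 5 negative arrays alike, and 34 of the 44 genes were higher in the positive array of all 5 numbered pairs, against 13.8% of all genes.

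The mean log2(signal + 32) of all 44 genes was between 8.93 and 9.04 on the 6 conventional CD15 positive arrays, against 8.24 to 8.66 on the 6 CD15 negative ones. The positive arrays were thus close to each other (SD 0.04) and the negative ones spread more (SD 0.15). Positive minus negative, this mean differed by 0.45 between the unnumbered arrays and by 0.49, 0.49, 0.60, 0.79 and 0.38 for numbers 2, 3, 4, 5 and 6. Every pair had the same sign, and number 5, whose negative array was the lowest of all, had the widest gap. The conventional arrays also fell into sets by whole-array correlation, numbers 2 to 5 in one and number 6 with the unnumbered pair in the other (mean r 0.958 within and 0.928 between the sets). Within numbers 2 to 5 alone, 25 of 44 genes rose. Within the other set, which has 4 arrays, 0 passed in limma, while 13 were higher or lower at an unadjusted p under 0.05 and 40 of the 44 values were above 0. No share over all genes is given for these smaller fits. Their counts therefore cannot be set against the array as a whole.

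**Figure D1:**
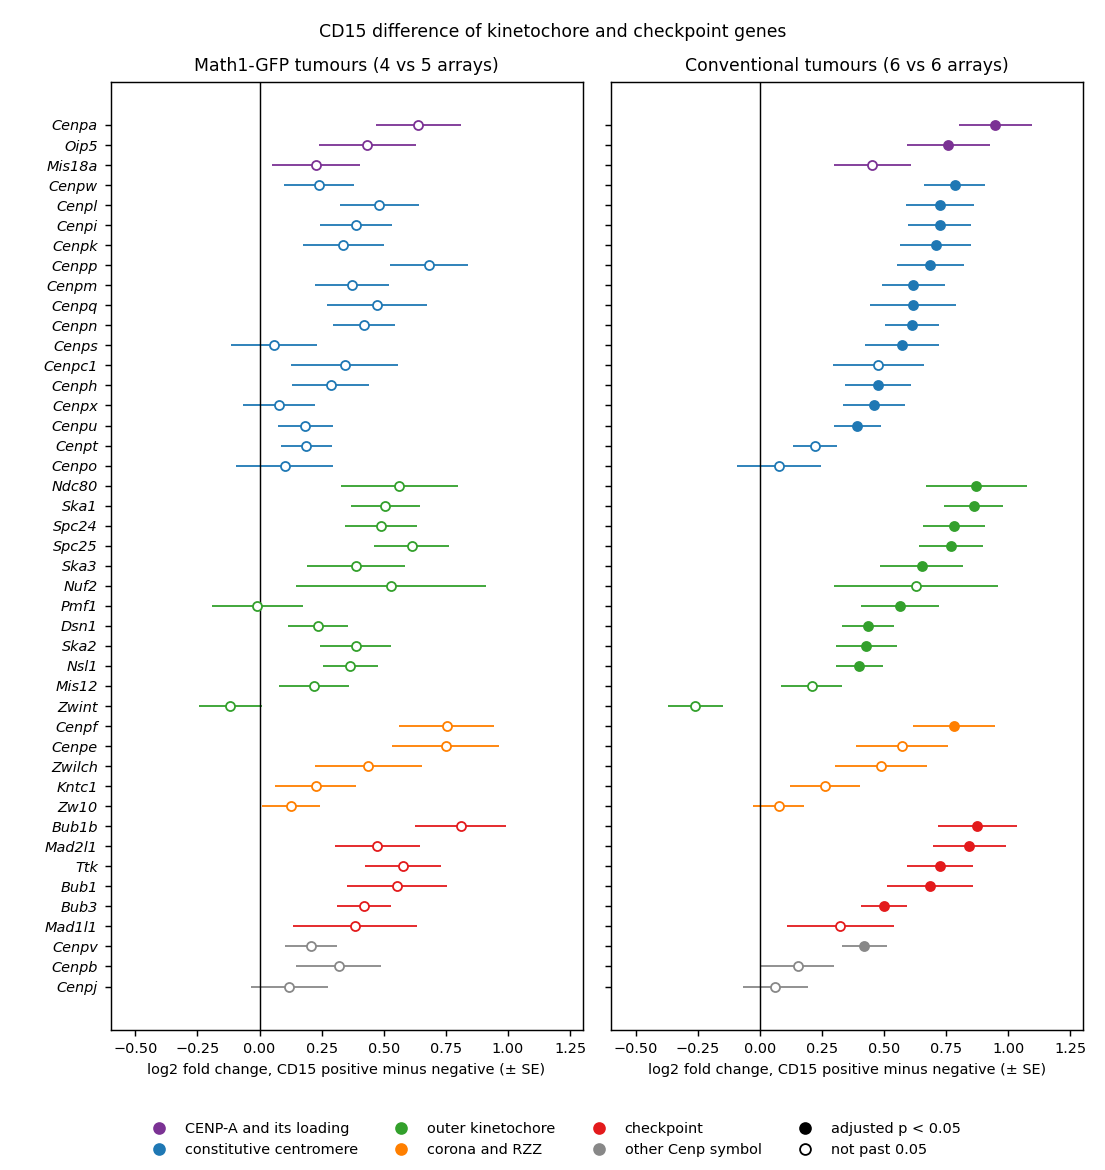
Log2 fold change of each of the 44 genes, CD15 positive minus CD15 negative, with its standard error, coloured by class, with Math1-GFP tumours on the left and conventional tumours on the right. Filled symbols passed the test. Of the 44 points 42 lie above 0 in Math1-GFP tumours and 43 in conventional tumours, where Zwint is the exception.

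Among the genes of CENP-A and its loading, 2 of 3 rose in conventional CD15 positive cells, with a median log2 fold change of 0.76. Cenpa, the histone H3 variant that marks the centromere, had the highest fold change of the 44 genes. Cenpa signal spanned 1989 to 2650 (median 2064) on conventional CD15 positive arrays, against 794 to 1534 (median 1114) on conventional CD15 negative arrays. No positive array was as low as the highest negative one, and the log2 fold change was 0.95 ± 0.15 (SE, adjusted p = 0.00059). Oip5, also called Mis18β, helps to bring new CENP-A to the centromere after division. Oip5 signal spanned 165 to 272 (median 169) on conventional CD15 positive arrays, against 78.8 to 139 (median 94.8) on conventional CD15 negative arrays, again without overlap, a difference of 0.76 ± 0.17 (SE, adjusted p = 0.0076). Its partner Mis18a had 941 to 1207 (median 1128) on positive against 682 to 1055 (median 751) on negative arrays. The groups overlapped, the positive array was higher in all 5 numbered pairs, and the difference of 0.45 ± 0.15 missed the threshold (limma adjusted p = 0.075).

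The constitutive centromere class, which holds the inner layer, had 12 of 15 genes higher in conventional CD15 positive cells and a median log2 fold change of 0.61. Cenpi, of the CENP-H, I, K and M subcomplex, signalled 211 to 267 (median 235) on positive arrays and 89.0 to 161 (median 141) on negative arrays. These do not overlap, and the difference was 0.72 ± 0.13 (SE, adjusted p = 0.0013). Cenpn, which binds CENP-A nucleosomes together with Cenpl, spanned 393 to 528 (median 488) on positive against 252 to 369 (median 282) on negative arrays, also without overlap and higher by 0.61 ± 0.11 (SE, adjusted p = 0.0014). Cenpp, of the CENP-O, P, Q, U and R subcomplex, spanned 349 to 593 (median 527) on positive against 223 to 377 (median 325) on negative arrays. Its ranges overlapped at their ends, and the log2 fold change was 0.69 ± 0.13 (SE, adjusted p = 0.0035). Cenph, Cenpk, Cenpl, Cenpm, Cenpq and Cenpu also rose, by 0.39 for Cenpu to 0.73 for Cenpl on the log2 scale, and Cenpm without overlap. Leaving out single arrays ended the call of Cenph for 6 of the 21 arrays (adjusted p up to 0.073) and of Cenpq for 7 (up to 0.086). Fitting the conventional groups alone ended that of Cenph (limma adjusted p = 0.075).

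Cenpw, Cenps and Cenpx are histone-fold proteins that join Cenpt in a DNA-binding complex. Cenpw signal spanned 491 to 650.4 (median 586) on conventional CD15 positive arrays, against 268 to 397 (median 312) on conventional CD15 negative arrays, and it rose by 0.78 ± 0.12 (SE, adjusted p = 0.00059) with no overlap. The other, dimmer probe set of Cenpw gave 0.39 (limma adjusted p = 0.083 with every probe set fitted). Cenps and Cenpx rose by 0.57 ± 0.15 (SE, adjusted p = 0.02) and 0.46 ± 0.12 (SE, adjusted p = 0.025), both with overlapping ranges. The call of Cenps ended without conventional CD15 positive array 2 (limma adjusted p = 0.052), and that of Cenpx without any of 4 arrays (up to 0.063). Both calls ended with the conventional groups fitted alone, at limma adjusted p = 0.061 for Cenps and 0.064 for Cenpx. Cenpt did not pass, at 0.22 ± 0.09 (limma adjusted p = 0.14). Nor did Cenpc1, the gene of CENP-C, which ties the inner layer to the outer one. Cenpc1 signal spanned 337 to 613 (median 502) on conventional CD15 positive arrays, against 275 to 391 (median 325) on conventional CD15 negative arrays, a difference of 0.48 ± 0.18 (limma adjusted p = 0.12). Cenpo had the smallest fold change of the class. It is a partner of Cenpp, and its signal of 56.8 to 122 (median 81.7) on positive arrays overlapped the 46.5 to 112 (median 73.3) on negative arrays, with a difference of 0.08 ± 0.17 (limma adjusted p = 0.85).

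Of the 12 outer kinetochore genes, 9 rose in conventional CD15 positive cells, and the median log2 fold change was 0.60. The NDC80 complex, whose 4 subunits form the rod that binds the microtubule, had 3 of them among the 9. Ndc80 signal spanned 244 to 421 (median 344) on conventional CD15 positive arrays, against 90.4 to 309.9 (median 170.5) on conventional CD15 negative arrays. The ranges overlapped, and the difference was 0.87 ± 0.20 (SE, adjusted p = 0.011). Spc24 and Spc25, the end of the rod that faces the centromere, did not overlap between the fractions. Spc24 signal spanned 741 to 1113 (median 1044) on conventional CD15 positive arrays, against 428 to 644 (median 568) on conventional CD15 negative arrays, higher by 0.78 ± 0.12 (SE, adjusted p = 0.00075). Spc25 spanned 1573 to 2792 (median 2063) on positive against 1087 to 1360 (median 1211) on negative arrays, higher by 0.77 ± 0.13 (SE, adjusted p = 0.001).

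The remaining subunit, Nuf2, had the largest standard error of the class. Its signal was 839.8, 330.0, 524, 312, 392 and 1043 on the conventional CD15 positive arrays, the unnumbered one first and then 2 to 6, against 668, 281, 179, 229.5, 168 and 800.2 on the CD15 negative arrays in the same order. The positive array was higher in every pair, and both fractions of the unnumbered pair and of number 6 were higher than every other conventional array. The log2 fold change was 0.63 ± 0.33 (limma adjusted p = 0.27), and with the number as a replicate block, a fit that leaves out the unnumbered pair, the adjusted p was 0.012. In that fit 30 of the 44 genes rose, against 3.65% of all genes.

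The SKA complex, which helps the NDC80 rod to follow a shrinking microtubule, rose in all 3 subunits. Ska1 signal spanned 408 to 461 (median 433) on conventional CD15 positive arrays, against 141 to 302 (median 234) on conventional CD15 negative arrays. The groups did not overlap, and the difference was 0.86 ± 0.12 (SE, adjusted p = 0.00023). Ska3 and Ska2 rose by 0.65 ± 0.17 (SE, adjusted p = 0.02) and 0.43 ± 0.12 (SE, adjusted p = 0.035), and Ska2 had an adjusted p of 0.079 without the unnumbered pair and 0.082 when the replicate block was added. Of the MIS12 complex, which links both layers, Dsn1, Nsl1 and Pmf1 rose, by 0.44, 0.40 and 0.56 on the log2 scale, while Mis12 itself did not pass at 0.21 ± 0.12 (limma adjusted p = 0.34). Leaving out single arrays ended the call of Pmf1 for 8 of the 21 arrays (adjusted p up to 0.066), and of Ska2 for 7 (up to 0.080). The call of Ska3 ended without conventional CD15 negative array 5 (limma adjusted p = 0.054).

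Zwint, which joins the scaffold KNL1 to the corona, was the only gene of the 44 below 0 in this comparison. Zwint signal spanned 803 to 1059 (median 933) on conventional CD15 positive arrays, against 874 to 1258 (median 1152) on conventional CD15 negative arrays. The ranges overlapped, the positive array was lower in all 5 numbered pairs, and the difference of -0.26 ± 0.11 did not pass (limma adjusted p = 0.16). Its 6 probe sets past the filter had log2 fold changes between -0.26 and 0.15, on both sides of 0. In rat brain the same gene has been described as a partner of the synaptic protein SNAP25.

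In the corona and RZZ class 1 of 5 genes rose, with a median of 0.49. That gene was Cenpf, a large protein of the nuclear matrix and the outer corona in late cell cycle phases. Cenpf signal spanned 587 to 1053 (median 747) on conventional CD15 positive arrays, against 302 to 553 (median 468) on conventional CD15 negative arrays, without overlap and higher by 0.78 ± 0.16 (SE, adjusted p = 0.0058). Cenpe, the kinesin that carries chromosomes to the middle of the spindle, spanned 269 to 458 (median 292) on positive against 129 to 295 (median 193) on negative arrays. Its highest positive array was number 6, and the difference of 0.57 ± 0.19 missed the threshold (limma adjusted p = 0.062). The RZZ complex, which calls dynein and the checkpoint proteins to the kinetochore, had 0 of 3 genes past the test in limma and 1, Zwilch, at an unadjusted p under 0.05. Zwilch differed by 0.49 ± 0.19 (limma adjusted p = 0.12), Kntc1, the ROD subunit, by 0.26 ± 0.14 (limma adjusted p = 0.28) and Zw10 by 0.07 ± 0.10 (limma adjusted p = 0.73). Zw10, which also serves membrane traffic between divisions, had 325 to 416 (median 366) on positive and 275 to 383 (median 367) on negative arrays.

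The checkpoint class had 5 of 6 genes higher in conventional CD15 positive cells, and its median log2 fold change was 0.71. Bub1b, the gene of BubR1 in the mitotic checkpoint complex, had no overlap between the fractions. Bub1b signal spanned 589 to 905 (median 760.4) on conventional CD15 positive arrays, against 283 to 544 (median 404) on conventional CD15 negative arrays, higher by 0.87 ± 0.16 (SE, adjusted p = 0.0019). Mad2l1, the gene of MAD2, which locks the anaphase activator Cdc20, spanned 2801 to 3866 (median 2927) on positive against 1372 to 2426 (median 1593) on negative arrays. All 6 positive arrays were above all 6 negative ones, and it rose by 0.84 ± 0.15 (SE, adjusted p = 0.0013). Ttk, the kinase MPS1 that starts the signal, spanned 396 to 626 (median 572) on positive against 228 to 463 (median 316) on negative arrays, with overlap, and rose by 0.73 ± 0.13 (SE, adjusted p = 0.0019).

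The kinase Bub1 had 760.5 to 1356 (median 938) on positive against 359 to 838 (median 641) on negative arrays. These overlapped, and the difference was 0.69 ± 0.17 (SE, adjusted p = 0.016). The call ended with the conventional groups fitted alone (limma adjusted p = 0.051) and within numbers 2 to 5 (limma adjusted p = 0.052). Within these numbers the calls of Cenph (limma adjusted p = 0.054), Cenpf (limma adjusted p = 0.055), Ska2 (limma adjusted p = 0.062), Cenpx (limma adjusted p = 0.064) and Cenpv (limma adjusted p = 0.080) ended too. Bub3, the shared partner of Bub1 and BubR1, rose by a smaller step of 0.50 ± 0.09 (SE, adjusted p = 0.0025), with signals of 3417 to 3837 (median 3622) on positive against 2034 to 2842 (median 2602) on negative arrays and no overlap. Mad1l1, which holds MAD2 at the kinetochore, was dim. Mad1l1 signal spanned 16.9 to 96.4 (median 62.5) on conventional CD15 positive arrays, against 6.64 to 62.3 (median 47.4) on conventional CD15 negative arrays, and the difference of 0.32 ± 0.21 did not pass (limma adjusted p = 0.41).

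The 3 other genes carry a Cenp symbol without being part of the kinetochore layers, and 1 of them rose. Cenpv, known from human cells as a protein of centromeric chromatin and the spindle midzone, spanned 1573 to 2040 (median 1882) on positive against 1249 to 1555 (median 1311) on negative arrays and rose by 0.42 ± 0.09 (SE, adjusted p = 0.0064). Cenpb, which binds a sequence box in centromeric satellite DNA, differed by 0.15 ± 0.15 (limma adjusted p = 0.61). Cenpj, a centriole assembly protein, differed by 0.06 ± 0.13 (limma adjusted p = 0.84). For Cenpb and Cenpj the arrays of the fractions overlapped widely.

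**Figure D2:**
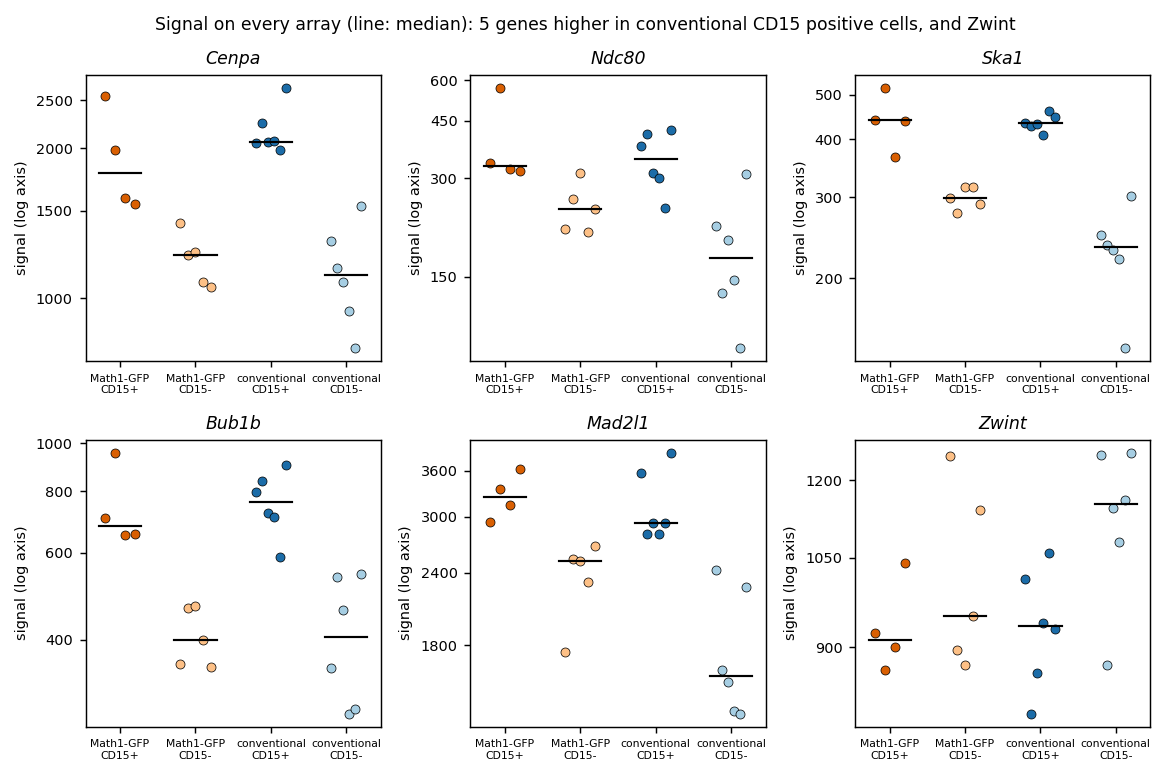
Signal (log axis) on every array for 5 genes, from the centromere, the outer kinetochore and the checkpoint, and Zwint, with the 4 groups side by side and a line at each group's median. Cenpa, Ska1, Bub1b and Mad2l1 are higher on CD15 positive arrays of both models without overlap, and Zwint overlaps in both.

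The middle of the constitutive centromere, outer kinetochore and checkpoint classes thus lay at 0.61, 0.60 and 0.71 in conventional tumours, and at 0.34, 0.39 and 0.51 in Math1-GFP tumours. No test was made between classes. Per array, the constitutive centromere class averaged 8.58 to 8.87 on conventional CD15 positive arrays and 8.03 to 8.24 on CD15 negative ones, so the fractions did not overlap. The outer kinetochore class averaged 8.72 to 8.97 on positive against 8.08 to 8.64 on negative arrays, and the checkpoint class 9.56 to 10.01 on positive against 8.62 to 9.42 on negative arrays, both without overlap. The corona and RZZ class averaged 8.62 to 9.09 on positive against 8.13 to 8.61 on negative arrays. The 3 other Cenp symbols averaged 8.73 to 9.27 on positive against 8.68 to 9.05 on negative arrays, the only class whose ranges overlapped in conventional tumours. In Math1-GFP tumours the only class that overlapped was the corona and RZZ, with a lowest value of 9.07 on positive arrays and a highest of 9.10 on negative arrays.

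**Figure D3:**
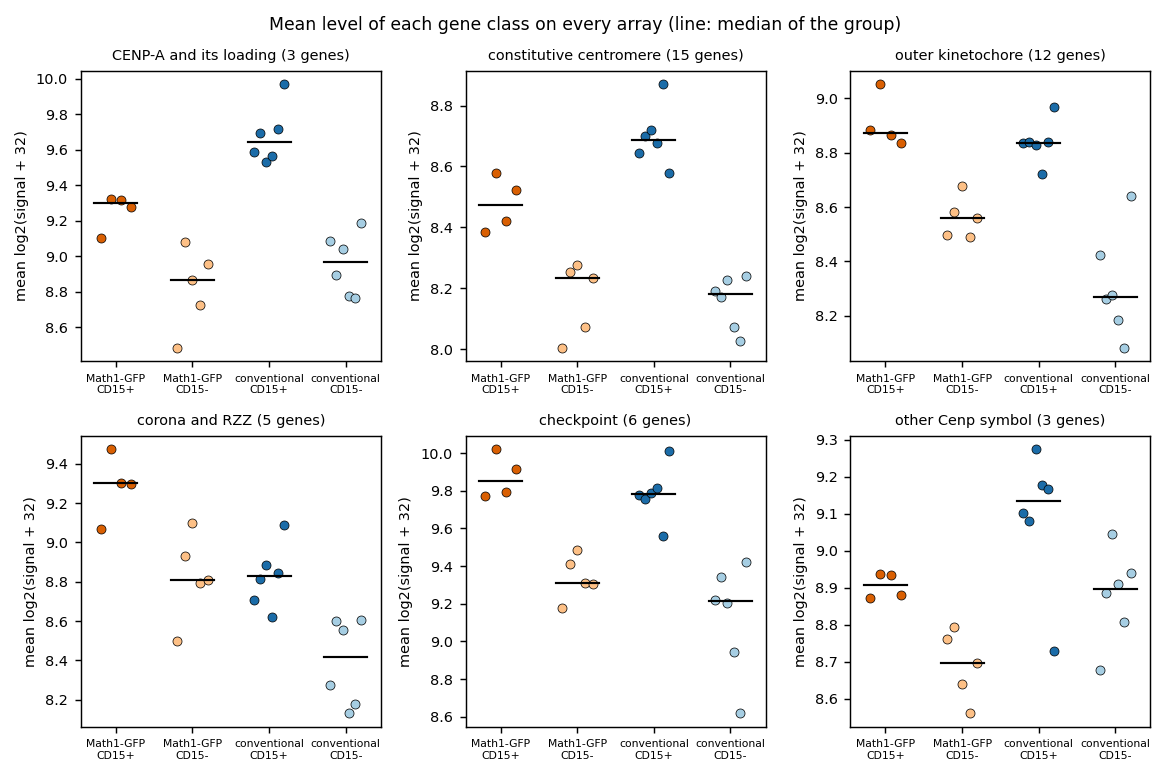
Mean log2(signal + 32) of the genes of each class on every array, by group, with a line at each group's median. CD15 positive arrays lie above all CD15 negative arrays of the same model, except for the corona and RZZ in Math1-GFP tumours and the other Cenp symbols in conventional tumours. The spread of the conventional CD15 negative arrays is wide in the checkpoint class.

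Lists of related genes outside the rule gave a scale for these values. Of 15 measured genes of G2 and M phase, among them Plk1, Ccnb2 and Ube2c, all 15 rose in conventional CD15 positive cells, with a median log2 fold change of 0.82. Of 16 measured genes of S phase, such as Pcna and the Mcm helicase subunits, 6 rose, with a median of 0.44. Of 9 further kinetochore genes, 5 rose, with a median of 0.62. These were Knstrn (0.90), the cohesin protectors Sgo1 (0.77) and Sgo2a (0.62), the dynein adaptor Spdl1 (0.70) and Trip13 (0.65), the ATPase that takes MAD2 complexes apart. Knl1, the scaffold on which Bub1 and Bub3 assemble, differed by 0.11 ± 0.14 (limma adjusted p = 0.73).

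Markers of neurons moved with the fractions. All 6 of them, Dcx, Mapt, Snap25, Stmn2, Syp and Tubb3, fell in conventional CD15 positive cells, and their summed signal was 3280 to 6655 on CD15 positive arrays against 6633 to 16339 on CD15 negative arrays. The 6 microglia and macrophage markers were 480 to 9268 in sum on conventional CD15 positive arrays against 190 to 2069 on CD15 negative ones, with 0 of 6 passing the test in limma and 1 higher at an unadjusted p under 0.05. Their mean on the log2 scale was higher in the positive array of every conventional pair. It differed by 0.07 between the unnumbered arrays and by 1.51, 0.998, 2.07, 0.64 and 0.71 for numbers 2, 3, 4, 5 and 6. Of 5 measured astrocyte markers 0 passed in limma and 1 was lower at an unadjusted p under 0.05, with sums of 839 to 3337 on conventional CD15 positive against 694 to 3623 on CD15 negative arrays. Of 5 measured oligodendrocyte lineage markers 0 passed in limma and 1 was lower at an unadjusted p under 0.05, with sums of 759 to 1648 on CD15 positive against 895 to 1628 on CD15 negative arrays. Of 6 neutrophil markers Camp and Ltf were below the filter, and the sum of the other 4 was 32.9 to 185 on conventional CD15 positive against 41.0 to 1333 on CD15 negative arrays. The part of any of these cell types in the kinetochore values was not tested.

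In Math1-GFP tumours 0 of the 44 genes passed the test between the fractions, where 0.0404% of all genes did. At an unadjusted p under 0.05 by limma, 21 of the 44 were higher and 0 lower, against 3.73% of all genes higher and 4.95% lower. The median log2 fold change was 0.38, against 0.00 over all genes, and 42 of the 44 values were above 0. On 16 genes every Math1-GFP CD15 positive array was above every CD15 negative one, against 2.54% of all genes, and on 0 below, against 2.78%. The mean of all 44 genes was 8.87 to 9.08 on the 4 positive arrays and 8.44 to 8.71 on the 5 negative ones. It was lowest on positive array 1 and negative array 2, and highest on positive array 5 and negative array 6. The titles share no number between these fractions, so the fit did not pair them. Whether neighbouring numbers mark pairs was not tested. The neuron markers summed to 2948 to 5024 on these positive arrays and to 5445 to 10158 on the negative ones. The 5 measured astrocyte markers summed to 1278 to 3692 on the positive and 714 to 1379 on the negative arrays, and their mean on the log2 scale did not overlap, at 7.55 to 9.53 on positive against 6.92 to 7.34 on negative arrays. Of these markers 2 were higher at an unadjusted p under 0.05 and 0 passed in limma. The part of either cell type in these values was not tested. The replicate block pairs only the conventional arrays but narrows the spread all groups share. With it, p-values for the unpaired Math1-GFP arrays are likely too small. In that fit 6 of the 44 genes passed as higher in Math1-GFP CD15 positive cells, against 0.582% of all genes. These were Bub1b (adjusted p = 0.017), Cenpp (adjusted p = 0.020), Cenpf (adjusted p = 0.024), Ttk (adjusted p = 0.040), Cenpa (adjusted p = 0.042) and Spc25 (adjusted p = 0.042). Without the unnumbered pair and with no block 0 of the 44 passed in limma, where 3 of all 12367 genes were higher and 9 lower. At an unadjusted p under 0.05, 22 of the 44 were higher in that fit, a count given without the share over all genes.

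Checkpoint genes had the highest median of the classes in Math1-GFP tumours, at 0.51, with 0 of 6 called by limma and 5 at an unadjusted p under 0.05. Bub1b had signals of 705, 957, 653 and 654 on the Math1-GFP CD15 positive arrays, against 357, 462, 467, 399 and 352 on the Math1-GFP CD15 negative arrays. The lowest positive array was above the highest negative one, and the difference was 0.81 ± 0.18 (limma adjusted p = 0.096). Ttk had 578, 631, 588 and 699 on the Math1-GFP CD15 positive arrays, against 394, 385, 447, 376 and 435 on the Math1-GFP CD15 negative arrays, also apart, with a difference of 0.58 ± 0.15 (limma adjusted p = 0.15). Mad2l1 had 2939, 3353, 3142 and 3620 on the Math1-GFP CD15 positive arrays, against 1755, 2537, 2512, 2314 and 2669 on the Math1-GFP CD15 negative arrays, apart as well, at 0.47 ± 0.17 (limma adjusted p = 0.34). Bub3 and Bub1 differed by 0.42 ± 0.11 and 0.55 ± 0.20 (limma adjusted p = 0.14 and 0.35), Bub3 without overlap.

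In the inner layer, Cenpa had signals of 2552, 1989, 1588 and 1546 on the Math1-GFP CD15 positive arrays, against 1419, 1220, 1239, 1076 and 1054 on the Math1-GFP CD15 negative arrays. The positive arrays were all higher, and the difference was 0.64 ± 0.17 (limma adjusted p = 0.15). Cenpp, at 662, 546, 525 and 482 on the Math1-GFP CD15 positive arrays, against 329, 357, 347, 313 and 308 on the Math1-GFP CD15 negative arrays, also had no overlap, with 0.68 ± 0.16 (limma adjusted p = 0.097). The constitutive centromere class as a whole had a median of 0.34 and 0 of 15 genes called by limma, 6 being higher at an unadjusted p under 0.05. Cenpo had 47.1, 93.3, 100.4 and 93.2 on the Math1-GFP CD15 positive arrays, against 44.0, 70.9, 91.6, 83.7 and 85.2 on the Math1-GFP CD15 negative arrays, where array 1 was lowest among the positive arrays and array 2 among the negative ones, and the difference was 0.10 ± 0.20.

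In the outer layer the median was 0.39 and 0 of 12 genes passed in limma, 6 being higher at an unadjusted p under 0.05. Ska1 had 441, 518, 367 and 439 on the Math1-GFP CD15 positive arrays, against 298, 277, 316, 316 and 289.6 on the Math1-GFP CD15 negative arrays, without overlap, a difference of 0.51 ± 0.14 (limma adjusted p = 0.16). Spc25 had 1914, 1759, 1445 and 1365 on the Math1-GFP CD15 positive arrays, against 1209, 1204, 1059, 822 and 955 on the Math1-GFP CD15 negative arrays, without overlap, at 0.61 ± 0.15 (limma adjusted p = 0.13). Ndc80 had 335, 569, 321 and 317 on the Math1-GFP CD15 positive arrays, against 209.5, 260.1, 310.4, 205 and 242 on the Math1-GFP CD15 negative arrays. Array 5 was the highest by far, all positive arrays were above the negative ones, and the difference was 0.56 ± 0.24 (limma adjusted p = 0.47). Zwint again lay below 0, at -0.12 ± 0.13 (limma adjusted p = 0.88).

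In the corona, Cenpf had 1466, 1782, 1077 and 1148 on the Math1-GFP CD15 positive arrays, against 858, 739.9, 934, 689.7 and 717 on the Math1-GFP CD15 negative arrays and differed by 0.75 ± 0.19 (limma adjusted p = 0.13). Cenpe had 483, 762, 533 and 612 on the Math1-GFP CD15 positive arrays, against 239, 382, 456, 303 and 344 on the Math1-GFP CD15 negative arrays and differed by 0.75 ± 0.22 (limma adjusted p = 0.17). Both were apart between the fractions. Nuf2, Nsl1, Cenpl, Cenpn and Spc24 were the remaining genes without overlap. In all, 9 genes had no overlap in either model: Bub1b, Bub3, Cenpa, Cenpf, Cenpn, Mad2l1, Ska1, Spc24 and Spc25. The share of all genes with every positive array above in both models was not counted. It was 1.89% in conventional and 2.54% in Math1-GFP tumours, each taken alone.

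Whether the fractions differed by unequal amounts in the 2 models was tested directly, conventional minus Math1-GFP. Of the 44 genes 0 passed, as did 0% of all genes. At an unadjusted p under 0.05 by limma 3 were higher and 0 lower, where 0.736% of all genes were higher, 1.52% lower and 2.26% in all. The difference was above 0 for 36 of the 44 genes, with a median of 0.15, against 5722 of all 12367 genes and a median of -0.02. It was above 0 for 14 of the 15 genes of the constitutive centromere, with a median of 0.21. The S phase list also lay above 0, for 16 of 16 genes with a median of 0.33, and the G2 and M phase list for 13 of 15 with a median of 0.11. The 3 members at an unadjusted p under 0.05 by limma were Pmf1, Cenpw and Cenps. Pmf1, a MIS12 complex subunit, had 284 to 427 (median 396) on conventional CD15 positive arrays against 194 to 369.5 (median 217) on conventional CD15 negative ones. It had 377, 247, 241 and 203 on the Math1-GFP CD15 positive arrays, against 281, 195, 321, 273 and 257 on the Math1-GFP CD15 negative arrays. The fold change was thus 0.56 in conventional and -0.01 in Math1-GFP tumours, a difference of 0.57 ± 0.24 (limma adjusted p = 1.00). This rests on the brighter probe set of Pmf1, and its other one gave 0.54 in conventional and 0.32 in Math1-GFP tumours, a difference of 0.21. For Cenpw and Cenps the conventional against Math1-GFP fold changes were 0.78 against 0.24 and 0.57 against 0.06, differences of 0.54 ± 0.19 and 0.51 ± 0.23 (limma adjusted p = 1.00 for both). The other probe set of Cenpw gave 0.39 against 0.13, a difference of 0.26.

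Averaged over both models, 29 of the 44 genes rose in CD15 positive cells and 0 fell, against 3.77% of all genes that rose, 5.97% that fell and 9.74% in all, and Zwint was again the gene lower at an unadjusted p under 0.05. The median was 0.48. By class 2 of 3 genes of CENP-A and its loading, 10 of 15 of the constitutive centromere, 8 of 12 of the outer kinetochore, 3 of 5 of the corona and RZZ, 5 of 6 of the checkpoint and 1 of 3 others rose. The genes that rose here but not in conventional tumours alone were Cenpe, by 0.66 ± 0.14 (SE, adjusted p = 0.0046), and Zwilch, by 0.46 ± 0.14 (SE, adjusted p = 0.042), whose call ended for 12 of the 21 arrays when left out singly (adjusted p up to 0.093). The genes past the test in conventional tumours but not in the average were Cenps, Cenpx and Pmf1, of which Pmf1 passed in the average with averaged probe sets (0.35, limma adjusted p = 0.0091). With the replicate block, whose narrower spread also applies to the unpaired Math1-GFP arrays, p-values in the average can be too small. In that fit 33 of the 44 genes rose in the average, against 5.75% of all genes. Those gained were Cenps (limma adjusted p = 0.024), Cenpx (limma adjusted p = 0.033), Mad1l1 (limma adjusted p = 0.024) and Nuf2 (limma adjusted p = 0.0026).

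Between the models, averaged over the fractions, 11 of the 44 genes were higher and 10 lower in Math1-GFP tumours. The fit took all arrays as independent, though conventional arrays of the same number varied together. Standard errors and p-values between the models are therefore likely too small. Among all genes 18.7% were higher and 20.5% lower, 39.2% in all, so the share of members called was near that of the array as a whole, and the median of 0.10 was close to the -0.01 of all genes. By class the counts were small, some of the calls behind them ended under alternatives given below, and no test was made between classes. Of the corona and RZZ genes 3 of 5 were higher and 0 lower, and of the outer kinetochore genes 4 of 12 higher and 2 lower. Of the constitutive centromere genes 2 of 15 were higher and 4 lower, and of CENP-A and its loading 0 of 3 higher and 2 lower. The checkpoint class had 2 of 6 higher and 1 lower, and Cenpv was lower among the others.

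The genes with the smallest p were lower in Math1-GFP tumours. Cenpx had 184, 236, 181 and 199 on Math1-GFP CD15 positive arrays and 152, 219, 188, 175 and 207 on Math1-GFP CD15 negative ones. Conventional arrays had 352 to 556 (median 443) in CD15 positive and 228 to 381 (median 319) in CD15 negative cells. The log2 difference was -0.85 ± 0.10 (SE, adjusted p = 1.2e-06), and within each fraction every Math1-GFP array was below every conventional one. Cenpv differed by -0.60 ± 0.07 (SE, adjusted p = 1.6e-06), with 1012, 1090, 1196 and 1116 on Math1-GFP CD15 positive arrays, below all conventional CD15 positive arrays at 1573 to 2040 (median 1882). Cenpw and Cenps, partners of Cenpx, differed by -0.63 ± 0.09 (SE, adjusted p = 2.4e-05) and -0.58 ± 0.11 (SE, adjusted p = 0.00049). The value of Cenpw rests on its brighter probe set, and its other one gave -0.057 (limma adjusted p = 0.67 with every probe set fitted). Cenpm, Oip5, Mis18a, Spc24, Spc25 and Bub3 were the other genes lower in Math1-GFP, by -0.22 for Bub3 to -0.47 for Oip5. Without Math1-GFP CD15 positive array 9 the calls of Bub3 (limma adjusted p = 0.052) and Spc25 (limma adjusted p = 0.053) ended, and with averaged probe sets Bub3 turned to 0.30 and Spc25 to 0.11.

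Higher in Math1-GFP tumours were Nuf2, by 1.09 ± 0.25 (SE, adjusted p = 0.0019), Cenpf, by 0.82 ± 0.13 (SE, adjusted p = 4.3e-05), and Cenpe, by 0.76 ± 0.14 (SE, adjusted p = 0.00032). Cenpe was above every conventional CD15 positive array on all 4 Math1-GFP CD15 positive arrays. Nuf2 had 952, 1333, 1053 and 1094 on Math1-GFP CD15 positive and 652, 755, 855, 699.6 and 814 on Math1-GFP CD15 negative arrays. Every conventional array of numbers 2 to 5 was below all of these. Those of number 6 (1043 positive and 800.2 negative) and the unnumbered negative array lay within the Math1-GFP range of their fraction. The unnumbered positive array lay below its range. The value of Nuf2 thus moves with the array sets as well as with the model. Bub1, Cenpi and Ska3 followed, at 0.51 ± 0.13 (SE, adjusted p = 0.0049), 0.50 ± 0.10 (SE, adjusted p = 0.00039) and 0.48 ± 0.13 (SE, adjusted p = 0.0057). Zwilch, Cenpl, Ttk, Dsn1 and Nsl1 were the others, by 0.19 for Nsl1 to 0.38 for Zwilch. Of these the calls of Zwilch, Nsl1 and Ttk ended for 13, 11 and 7 of the 21 arrays when left out singly, as did that of Mis18a for 7. The replicate block takes differences between conventional samples out of the spread, and a comparison of models rests on those differences. Its p-values between the models are therefore likely smaller than they should be. With this block 20 of the 44 genes were called, against 46% of all genes. The calls of Mis18a (limma adjusted p = 0.078), Ttk (limma adjusted p = 0.062) and Zwilch (limma adjusted p = 0.057) ended, and Mad2l1 (0.31, limma adjusted p = 0.0077) and Ndc80 (0.33, limma adjusted p = 0.046) were gained. Without the unnumbered pair and with no block the calls of Mis18a, Ttk and Zwilch also ended and that of Mad2l1 was also gained. Quantile normalization ended 8 of the 21 calls, those of Bub3 (limma adjusted p = 0.73), Nsl1 (limma adjusted p = 0.66), Spc25 (limma adjusted p = 0.24), Dsn1 (limma adjusted p = 0.12), Cenpl (limma adjusted p = 0.099), Mis18a (limma adjusted p = 0.074), Ttk (limma adjusted p = 0.067) and Zwilch (limma adjusted p = 0.062).

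All 6 microglia and macrophage markers were lower in Math1-GFP tumours, with sums of 244 to 1154 on Math1-GFP CD15 positive and 141 to 385 on Math1-GFP CD15 negative arrays, against the conventional sums given above. The 5 measured oligodendrocyte lineage markers were all above 0 in this comparison, with a median log2 difference of 0.48, and 2 of them, Pdgfra and Mbp, were called higher. Their sums were 1900 to 3680 on Math1-GFP CD15 positive and 1352 to 2991 on Math1-GFP CD15 negative arrays, against 759 to 1648 on conventional CD15 positive and 895 to 1628 on conventional CD15 negative arrays. Among astrocyte markers 1 of 5 was called higher and 1 lower. The part of any of these cell types in the differences between models was not tested.

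**Figure D4:**
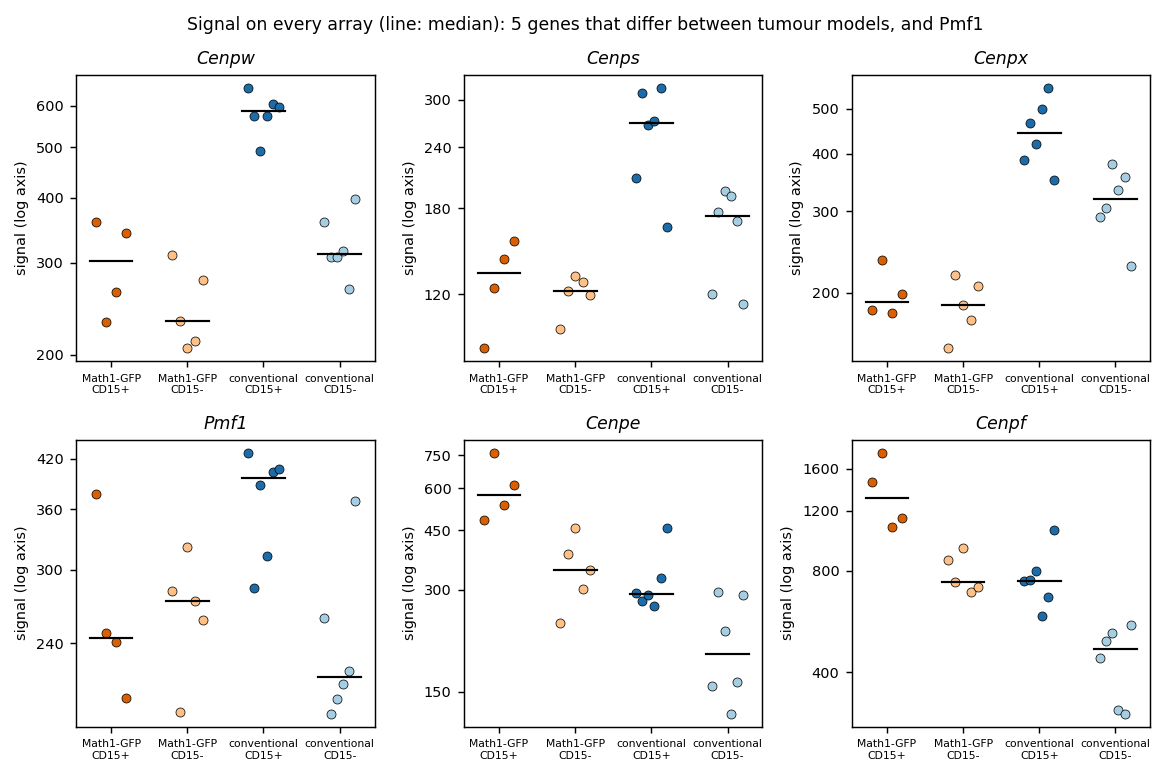
Signal (log axis) on every array for 5 genes that differ between the tumour models, and Pmf1, with the 4 groups side by side and a line at each median. Cenpw, Cenps and Cenpx are lower and Cenpe and Cenpf higher in Math1-GFP tumours, and the fractions of Pmf1, drawn from its brighter probe set, lie apart by 0.56 (log2) in conventional tumours against -0.01 in Math1-GFP tumours (0.54 against 0.32 on its other probe set). Cenpw is also drawn from its brighter probe set, and its other one differed by -0.057 between the models.

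The comparison of models depended on the probe set. Of the 44 genes, 22 had several probe sets past the filter, and in 11 of them at least 1 other probe set went the opposite way to the brightest between the models, against 5 genes for the CD15 difference in each tumour model. Of the 35 other probe sets, 28 were above 0 and 13 were called between the models, all 13 higher in Math1-GFP. Of the dimmer probe sets of all genes 68% were above 0, 35.8% were called higher and 9.97% lower, so the share called higher was near that of the array as a whole. The brightest probe set of Cenpa differed by -0.05 and its dimmer one by 0.77. That of Cenpk differed by -0.26 and its dimmer ones by 0.91 and 0.51, and that of Spc25 by -0.30 and its dimmer one by 0.51. For Bub3 the brightest gave -0.22 and another gave 0.86. For the CD15 difference in conventional tumours the other 35 probe sets had a median of 0.15, with 4 called, all higher, against 1.48% of the dimmer probe sets of all genes. With each gene read as the mean of its probe sets, 24 of the 44 genes rose, a count given without the share over all genes in that fit. Those that no longer passed included Cenpa, at 0.56 (limma adjusted p = 0.19), Spc25, at 0.44 (limma adjusted p = 0.065), Bub3, at 0.18 (limma adjusted p = 0.30), and Cenpk, at 0.28 (limma adjusted p = 0.22).

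**Figure D5:**
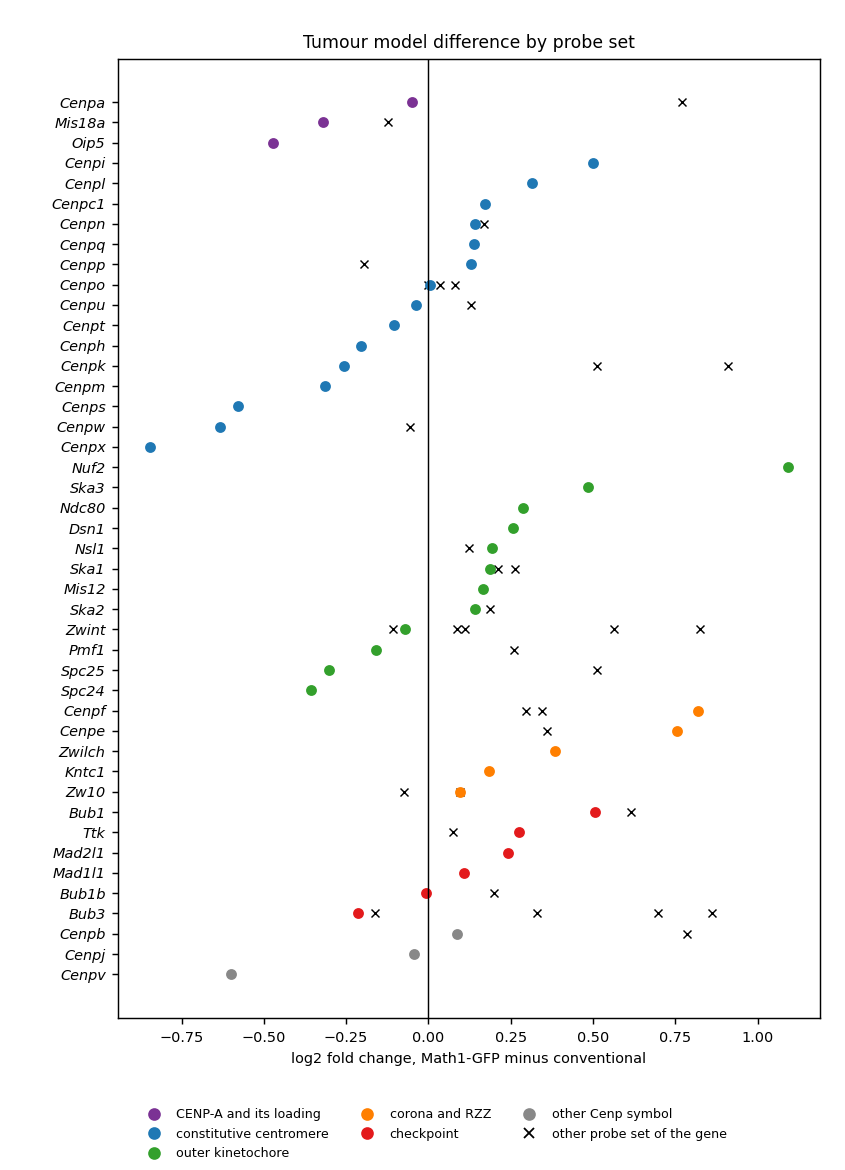
Log2 difference between the tumour models (Math1-GFP minus conventional) for each of the 44 genes, 1 gene a line. Coloured circles are the brightest probe set of a gene and crosses its other probe sets past the filter; 25 of the 44 circles and 28 of the 35 crosses lie above 0.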

How the data were processed

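The 21 samples were sorted tumour cells, each on an Affymetrix Mouse Genome 430 2.0 array. The values deposited by the authors are linear intensities, 1 a probe set, made by steps not given in the sources used here. Every array has a mean of 150.0 once 2% of values at each end are removed, and the distributions differ between arrays. The number of arrays limits the precision.

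Intensities entered the analysis as log2(signal + 32), which understates changes of dim genes. The 64 control probe sets, the 40% of probe sets with the lowest mean (under a signal of 15.5) and those with several symbols (932) or none (9211) were left out, and each gene was read from its brightest probe set. Symbols came from the platform annotation. Group means of the 4 groups were estimated together with limma 3.58.1 (R 4.3.3), leaving 17 residual degrees of freedom, and moderated two-sided p-values were adjusted by Benjamini-Hochberg over 12367 genes within a contrast, with a threshold of 0.05. The plan had named quantile normalization for arrays not yet made comparable, and the common mean was taken as sufficient, with quantile normalization as an alternative. In simulated data with the same spread the conventional comparison recovered 26% of changes of 0.5 and 82% of changes of 1 (log2), 100 genes each, with 2 false calls. The simulated noise was independent between genes and arrays, without pairs or array sets. These shares therefore need not hold for the real arrays.

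Genes and lists were chosen with earlier results of these data known. Genes always described were Cenpa, Cenpc1, Cenpe, Cenpf, Ndc80, Zwint, Bub1, Bub1b, Mad2l1 and Ttk, with, per class, the 3 of smallest and the 1 of largest p in the average over models, and the 3 of smallest p in the interaction and between models.

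Math1-GFP titles share no number between the fractions, and no pairing was examined there. Conventional titles carry the numbers 2 to 6 in both fractions. Deviations from the group means went together in arrays of the same number (r 0.58 to 0.76, against at most 0.40 for other numbers), so the numbers were taken to pair the samples, and results of the fit with this block, which leaves out the unnumbered pair, stand beside the calls it alters. Alternatives were quantile normalization, a smaller and a larger pseudocount, other filters, all or averaged probe sets, fits of the groups of a contrast alone, trended robust estimation, the block, the array sets, and leaving out arrays.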

Additional observations from a re-analysis of the deposited data

Results flagged for a closer look

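Each gene the report describes and each class mean was searched, group by group, for an array whose gap to its nearest neighbour was wide for the group's range (Dixon's criterion). Of 144 groups 5 had one, and chance gives about 1 in 20. Values are log2(signal + 32). Mad1l1 was lowest on conventional CD15 negative array 5, at 5.27 (a signal of 6.64, against 43.3 on the next array), which is also the negative array with the lowest mean of all 44 genes. Cenpo was lowest on Math1-GFP CD15 positive array 1, at 6.31 (a signal of 47.1, against 93.2). Ndc80 was highest on Math1-GFP CD15 positive array 5, at 9.23 (a signal of 569, against 335). Cenpe was highest on conventional CD15 positive array 6, at 8.94 (a signal of 458, against 326). The mean of the 3 other Cenp symbols was lowest on the same array, at 8.73, against 9.08 on the next.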

How the results depend on the processing

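Of the 44 genes, 24 to 33 rose in conventional CD15 positive cells under the alternatives run over both array sets, and 25 (without CD15 negative array 5) to 32 when single arrays were left out; within numbers 2 to 5 it was 25. Within number 6 and the unnumbered arrays 0 rose, and 0 in every class, a set of 4 arrays with 40 of 44 values above 0; medians there were 0.46 for the constitutive centromere, 0.41 for the outer kinetochore and -0.00814 for the 3 other Cenp symbols. With the replicate block 30 rose in conventional tumours (29 of them shared, Nuf2 gained and Ska2 lost), 6 in Math1-GFP tumours, 33 in the average and 20 differed between models, in a fit without the unnumbered pair. The p-values of that fit are likely too small in Math1-GFP tumours, in the average and between models. The calls it changed in the average and between models stand in the report. In Math1-GFP tumours the array set as a block gave 1, and leaving out single arrays 0 to 1 (Ska1, without conventional CD15 negative array 5). Leaving out arrays gave 28 to 32 genes in the average, 17 to 24 between models and 0 in the interaction, and by class 2 to 3 for CENP-A and its loading, 9 to 12 for the constitutive centromere, 6 (without conventional CD15 negative array 5) to 9 for the outer kinetochore, 1 to 2 for the corona and RZZ, 5 for the checkpoint and 1 for the others. The corona and RZZ count was 2 with quantile normalization, the filter at the 60th percentile or the array set as a block, 3 without Math1-GFP arrays 1 and 2, and 0 within numbers 2 to 5, where the others also had 0. The median of CENP-A and its loading was 0.93 with a pseudocount of 1, 0.48 with the larger pseudocount tried (0.24 in Math1-GFP) and 0.56 with averaged probe sets, where 1 gene rose. With that pseudocount the medians were 0.49 for the constitutive centromere and 0.42 for the outer kinetochore. Averaged probe sets gave 0.45 for the outer kinetochore and 0.45 for the checkpoint, and lost the conventional calls of Bub3, Cenpa, Cenpk, Nsl1, Ska2 and Spc25. Between models quantile normalization left 16 genes called and turned Bub3 to 0.033, and averaged probe sets turned Bub3 to 0.30, Spc25 to 0.11 and Zwint to 0.23. The causes were not tested, and no share over all genes stands beside the counts of this section.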
